A study of Mus musculus with 32 samples.

Results

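Rab GTPases and the synaptotagmin-like proteins that bind them were followed by their transcripts in 32 single mouse oocytes. Rows were taken where the gene symbol was Rab with a number and at most 1 letter, or Sytl1 to Sytl5, which gave 50 Rab genes and 5 Sytl genes, 55 of the 13175 genes in the table. The rule reads gene symbols alone, although the family was picked with earlier results of these data known. All oocytes were wild type (WT) and came from preantral mouse follicles grown in encapsulated culture (eIVFG). The follicles had either been vitrified, that is cooled into a glass-like state for storage, or used fresh. Germinal vesicle (GV) oocytes, fully grown but still before the first meiotic division, were taken on day 8 of culture, 4 from fresh and 4 from vitrified follicles. Metaphase II (MII) oocytes, which are ovulated eggs, were taken on day 9 after hCG, 12 from fresh and 12 from vitrified follicles. Every MII oocyte had therefore been exposed to hCG and every GV oocyte had not. The mouse strain, the age of the animals and the animal or culture behind each oocyte were not given in the sources used here, so p-values measure the spread between these oocytes.

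Rab proteins are small GTPases that mark membranes. Exchange factors (GEFs) load them with GTP, GTPase-activating proteins (GAPs) switch them off, and effectors recruited by the GTP-bound form tether, move or dock vesicles. Synaptotagmin-like proteins are effectors of Rab27 that also bind phospholipid membranes and dock secretory granules. In the mouse oocyte, Rab3a and Rab27a have been tied to the cortical granules that are released at fertilization, and Rab11a vesicles carry actin nucleators through the cytoplasm.

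Total counts per oocyte ran from 10357543 to 17687247 in fresh GV, from 11159677 to 16554201 in vitrified GV, from 6196963 to 10142885 in fresh MII and from 5300203 to 12206497 in vitrified MII oocytes. All 12 oocyte markers examined, among them Gdf9 and Zp3, were detected in every group. Levels are CPM, counts scaled to a library of 1000000. Each library size was first multiplied by its TMM factor, which aligns libraries on the bulk of their genes. CPM are thus relative levels, neither plain shares of an oocyte's captured RNA nor amounts per oocyte. The factors ran from 1.00 to 1.40 in GV and from 0.69 to 1.06 in MII oocytes, which raises most MII levels against GV levels. Deposited values of GV oocytes were whole and those of MII oocytes were partly fractional, and no range of library numbers held both stages (81 to 85 in GV and 2 to 25 in MII oocytes). Stage, library set and the way the values were made can therefore not be told apart. Among MII oocytes, fresh replicate 11 stood apart: 20 granulosa and cumulus markers summed to 4906 CPM there, against a median of 101 CPM over the fresh MII oocytes. Vitrified replicate 12 was next at 764 CPM. Serpine2, which fresh and vitrified MII oocytes held at a high level, was left out of that sum after its values were seen.

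The family was expressed broadly, with a few genes far above the rest. Between 44 and 49 of the 55 genes were detected in each GV oocyte, and between 37 and 49 in each MII oocyte. Their summed level was 2764 ± 430 CPM (SD, n = 4) in fresh GV, 2670 ± 142 CPM (SD, n = 4) in vitrified GV, 4012 ± 381 CPM (SD, n = 12) in fresh MII and 4691 ± 434 CPM (SD, n = 12) in vitrified MII oocytes. The TMM factors given above raise most MII sums against GV sums, and sums on library totals alone were not taken. Per kilobase of annotated exon, Rab11a had the highest mean level in fresh GV oocytes at 166 ± 70.4 CPM per kb (SD, n = 4), and Rab38 was next at 145 ± 37.7 CPM per kb. These neighbours did not differ beyond their spread. Rab3b at 75.3 ± 42.6 and Rab2a at 62.02 ± 16.4 CPM per kb came after them. In fresh MII oocytes the order was Rab7 at 307 ± 72.3, Rab11a at 143 ± 27.8, Rab2a at 98.8 ± 20.3 and Sytl4 at 88.6 ± 14.4 CPM per kb (SD, n = 12). Rab14 depends on the length used: in fresh GV oocytes it was at 40.3 CPM per kb with all its exons and at 178 CPM per kb with its longest coding transcript.

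**Figure D1:**
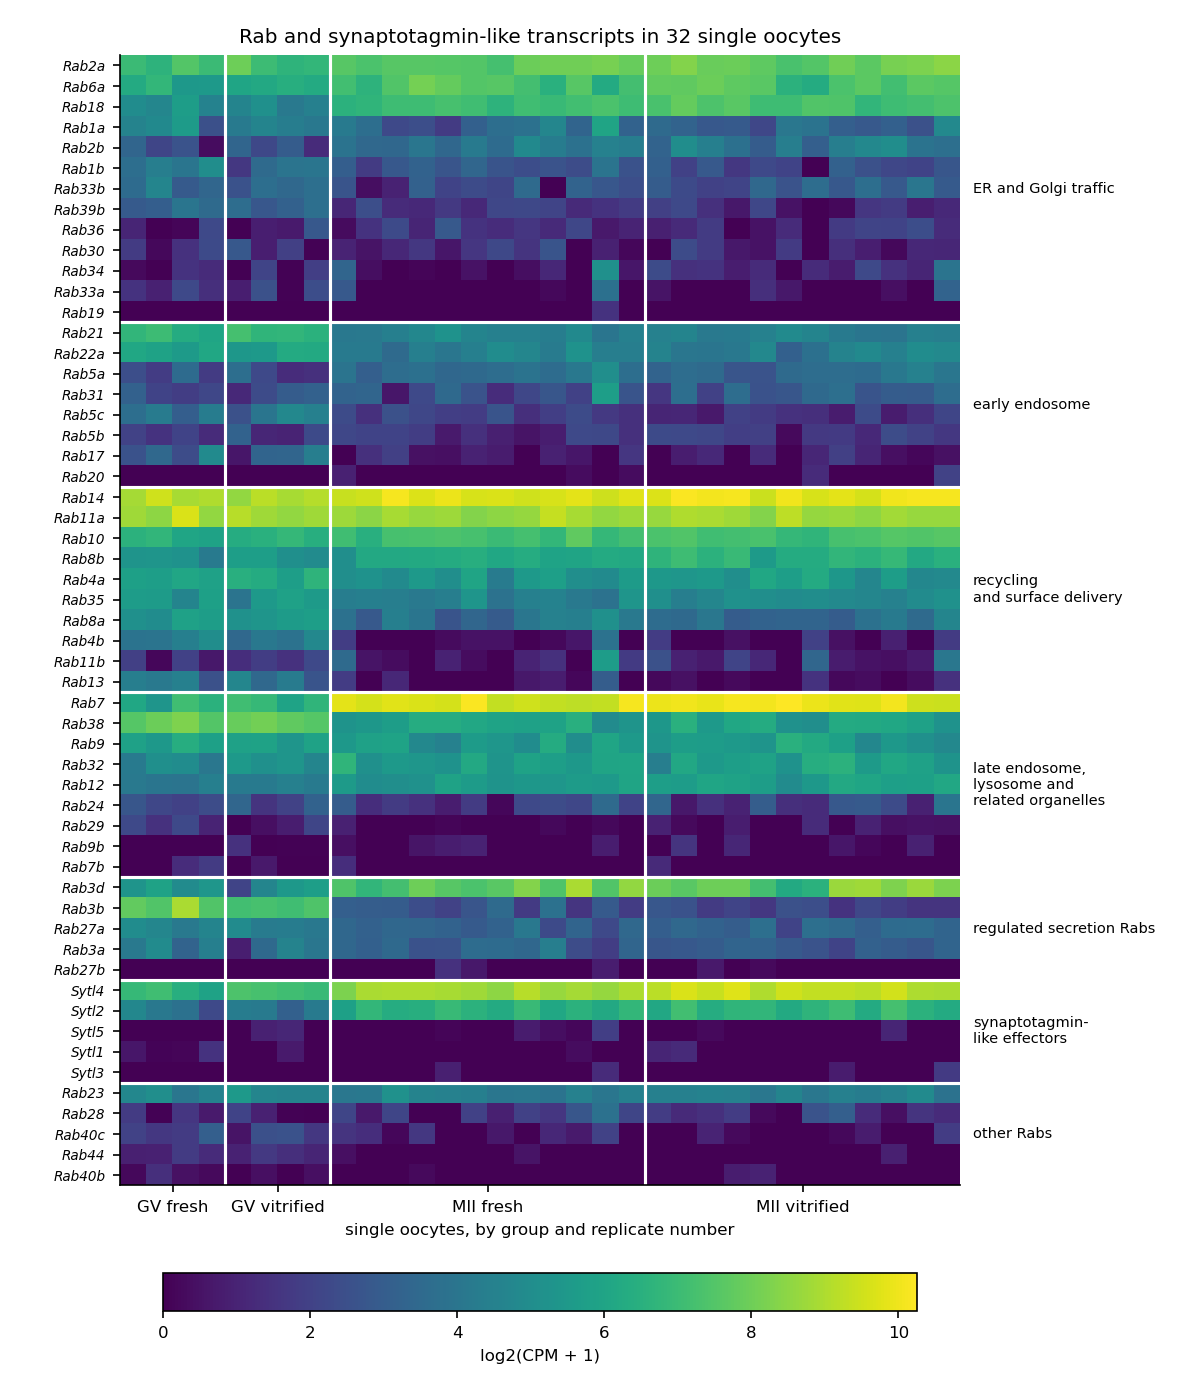
Level of each of the 55 genes (rows, grouped by cellular role) in each of the 32 oocytes (columns, grouped by stage and treatment), as log2(CPM + 1) in colour. Rab14 and Rab11a were high in all 4 groups, Rab7 and Sytl4 were brighter in the MII columns, and Rab3b and Rab38 were brighter in the GV columns.

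Of the 55 genes, 46 had enough counts to be tested when all 32 oocytes were fitted together, and 36 had enough among MII oocytes alone. The other 9 (Rab19, Rab20, Rab27b, Rab7b, Rab9b, Rab40b, Sytl1, Sytl3 and Sytl5) did not exceed 3.07 CPM in any oocyte. Rab27b, the close relative of Rab27a that also acts in granule docking, had 0 counts in all 8 GV oocytes. Counts of Rab27b were found in 5 of 24 MII oocytes, with 1.75 CPM as the highest level. A count of 0 allows up to 0.290 CPM in the shallowest GV oocyte, taking 3 counts as the limit. Rab19, Rab20 and Sytl3 were likewise at 0 in all GV oocytes. Both counts of genes passing the filter exclude genes too low to test, so they do not speak for all 55.

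In the comparison of MII with GV oocytes, the family split. In fresh oocytes 14 of the 46 tested genes were higher in MII, 17 were lower and 15 did not pass the test (edgeR's quasi-likelihood test, adjusted p under 0.05 over all genes tested). Over all 11470 genes tested, 22.8% were higher and 29.8% lower. The median log2 fold change was −0.32 over the family and −0.23 over all genes. In vitrified oocytes 13 of 46 were higher, against 23.3% of all genes, and 15 were lower, against 33.7% of all genes. There the medians were −0.41 for the family and −0.34 for all genes. Of the 46 genes, 10 did not have enough counts among MII oocytes alone and were tested only in the fit with GV oocytes. In that fit high GV values can carry a gene past the filter, though MII values can do so too. They include 5 of the 17 falls in fresh oocytes (Rab13, Rab17, Rab29, Rab44 and Rab4b) and 5 of the 15 in vitrified ones (Rab13, Rab17, Rab40c, Rab44 and Rab4b). Over the other 36 genes 14 were higher and 12 lower in fresh and 13 and 10 in vitrified oocytes, with medians of −0.19 and −0.16. The shares over all genes with enough counts among MII oocytes alone were not taken, so these counts have no matched background. Over the 46 genes, rising and falling ones made up shares near those of the 11470 genes tested. With library totals alone as the scale, calls over all genes split into 1992 higher and 4142 lower in place of 2615 and 3413 in fresh oocytes, and into 1945 and 4703 in place of 2678 and 3861 in vitrified oocytes. The test called 13 genes higher and 13 lower in both treatments, and no gene was called in opposite directions. Fresh and vitrified comparisons use different oocytes but come from a single fit, and the comparisons of vitrified with fresh oocytes given further on use the same oocytes again.

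Separation was complete for some genes. The lowest fresh MII oocyte lay above the highest fresh GV oocyte for 8 of the 46 genes (12.6% of all genes), namely Rab7, Sytl4, Sytl2, Rab18, Rab3d, Rab12, Rab32 and Rab2b. The reverse held for 11 genes (18.3% of all genes). In vitrified oocytes all MII values lay above all GV values for 7 genes (13.4% of all genes) and below them for 11 (20.5% of all genes).

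**Figure D2:**
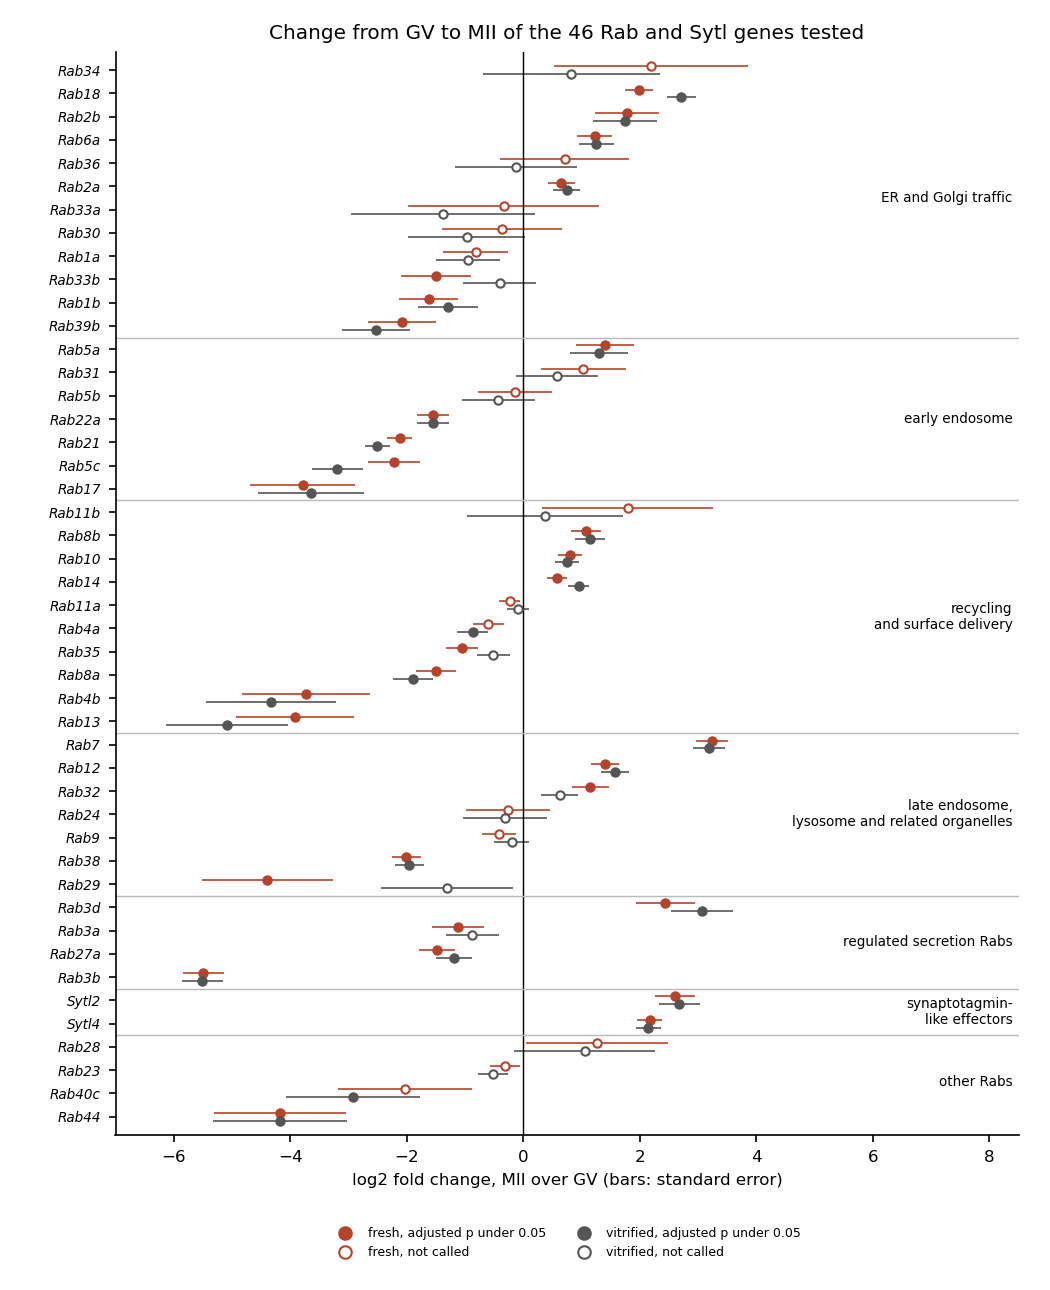
Log2 fold change of MII over GV oocytes for the 46 genes tested, grouped by cellular role, in fresh (red) and vitrified (grey) oocytes, with standard errors as bars. Filled points passed the test and open points did not. Rab3b lay lowest at −5.49 in fresh oocytes and Rab7 lay highest at 3.24.

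The Rabs of regulated secretion and their Sytl effectors held the largest fall in the family, that of Rab3b, and rises of Rab3d, Sytl2 and Sytl4. Rab3b, a vesicle-associated Rab of secretory cells, was at 222, 175, 488 and 176 CPM in the 4 fresh GV oocytes. In fresh MII oocytes its lowest, median and highest values were 2.01, 5.96 and 12.98 CPM. Every MII oocyte thus lay far below every GV oocyte, with GV replicate 3 highest. The log2 fold change was −5.49 ± 0.35 (SE, adjusted p = 6.4e-15), and −5.003 without that replicate. Vitrified GV oocytes held 142, 153, 138 and 173 CPM and vitrified MII oocytes 1.79, 2.98 and 5.96 CPM, a log2 fold change of −5.51 ± 0.36 (adjusted p = 6.88e-15). Rab3b lies at chr4:108879063-108943324 (GRCm38, plus strand).

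Rab27a, the docking Rab of secretory granules, was at 30.6, 24.8, 16.6 and 23.7 CPM in fresh GV oocytes, and at 3.82, 8.64 and 16.3 CPM (lowest, median and highest) in fresh MII oocytes. No MII value reached the lowest GV value. Vitrified oocytes held 30.2, 18.4, 18.6 and 16.0 CPM in GV and 3.18, 9.37 and 12.4 CPM in MII. Rab27a fell with a log2 fold change of −1.49 ± 0.31 (adjusted p = 0.000112) in fresh and −1.19 ± 0.31 (adjusted p = 0.00142) in vitrified oocytes. Rab3a, which acts in vesicle and granule exocytosis, was at 16.5, 29.7, 8.55 and 20.8 CPM in fresh GV oocytes and at 2.60, 9.40 and 20.1 CPM in fresh MII oocytes. These ranges overlapped widely. Its log2 fold change of −1.12 ± 0.45 passed in fresh oocytes (adjusted p = 0.0354), but leaving out GV fresh replicate 1, 2 or 4, or MII fresh replicate 4, 5 or 10, each ended the call (adjusted p = 0.0505 to 0.196). In vitrified oocytes it was −0.88 ± 0.46 (adjusted p = 0.0985). Rab3d, the third member of this branch and a granule Rab of exocrine cells, went the other way. Fresh GV oocytes held 38.5, 59.0, 29.9 and 40.6 CPM and fresh MII oocytes 106, 184 and 498 CPM. Every MII oocyte was above every GV oocyte, and Rab3d rose by 2.43 ± 0.51 (adjusted p = 0.000121) in fresh and 3.07 ± 0.53 (adjusted p = 7.09e-06) in vitrified oocytes on the log2 scale. The vitrified values were 3.31, 24.7, 42.9 and 52.6 CPM in GV and 73.1, 255 and 445 CPM in MII oocytes.

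Sytl4, also called granuphilin and known from the docking of insulin granules, was at 116, 138, 85.1 and 59.1 CPM in fresh GV oocytes. Fresh MII oocytes ran from 300 through a median of 478 to 566 CPM. All MII oocytes were above all GV oocytes, and the log2 fold change was 2.17 ± 0.21 (adjusted p = 1.47e-10). In vitrified oocytes Sytl4 went from 168, 154, 137 and 122 CPM in GV to 489, 633 and 854 CPM in MII, a log2 fold change of 2.15 ± 0.21 (adjusted p = 1.37e-10). Sytl4 lies on the X chromosome at chrX:133936385-133981812 (GRCm38, minus strand). Sytl2, which binds Rab27a on melanosomes and secretory granules, was at 25.8, 16.1, 13.2 and 3.75 CPM in fresh GV oocytes and at 56.0, 89.3 and 123 CPM in fresh MII oocytes. Again no ranges met, and the log2 fold change was 2.60 ± 0.35 (adjusted p = 8.65e-08) in fresh and 2.68 ± 0.35 (adjusted p = 4.54e-08) in vitrified oocytes. Sytl2 and Sytl4 were both of the Sytl genes that could be tested, and both rose, as did 22.8% and 23.3% of all genes in the 2 treatments. In these oocytes the effectors Sytl2 and Sytl4 were thus higher in MII while Rab27a, which both bind, was lower.

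**Figure D3:**
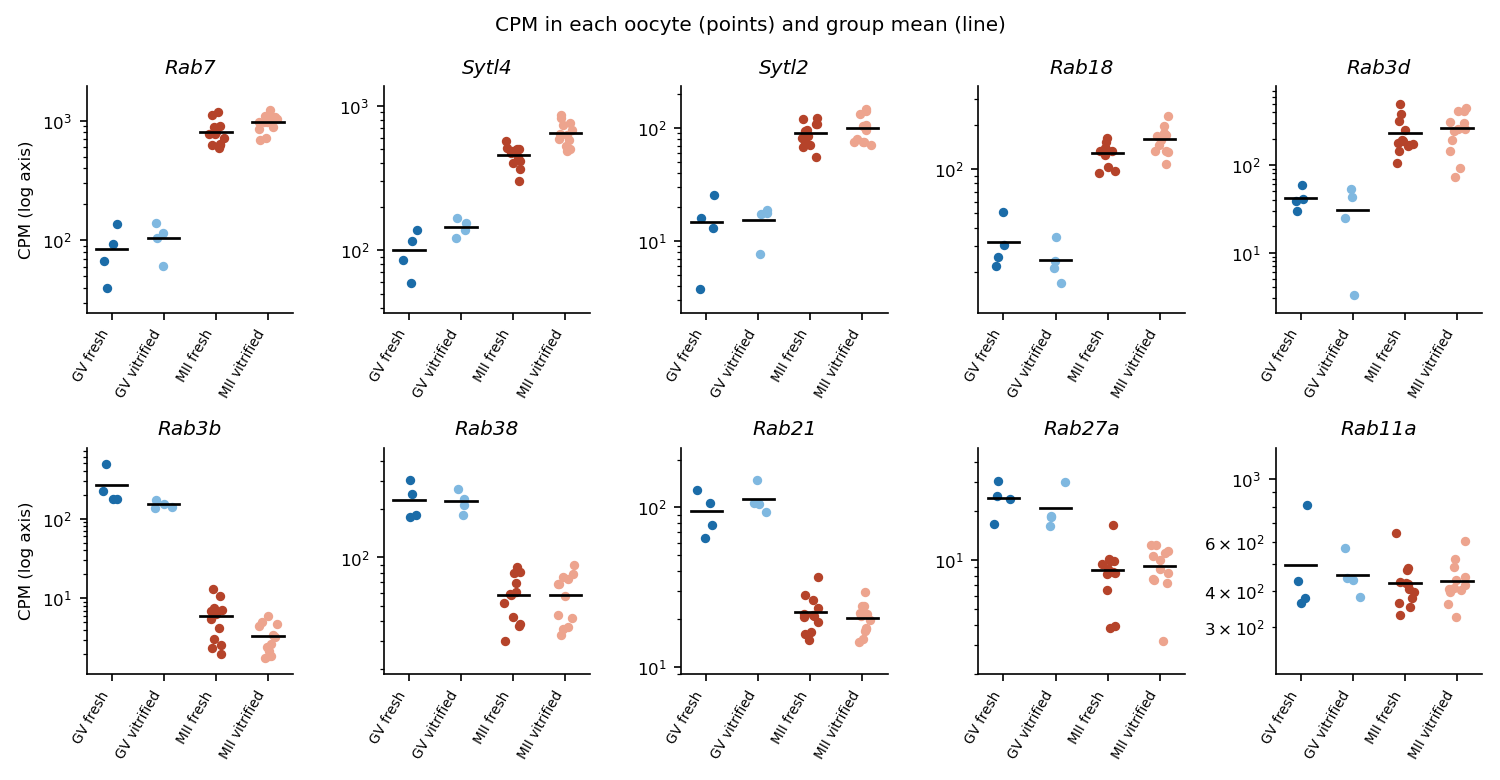
CPM of 10 genes in every oocyte (points, log axis, a separate axis for each gene) with the group mean as a line, in fresh GV, vitrified GV, fresh MII and vitrified MII oocytes. Rab7, Sytl4, Sytl2, Rab18 and Rab3d were higher in every MII oocyte than in any GV oocyte, Rab3b, Rab38 and Rab21 were lower, Rab27a was lower within each treatment, and the 4 groups overlapped for Rab11a.

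Among the Rabs of late endosomes, lysosomes and related organelles, 3 of 7 tested were higher and 2 lower in fresh MII oocytes. Over all genes 22.8% were higher and 29.8% lower there. Rab7, which directs late endosomes to fuse with lysosomes, was at 67.2, 39.6, 136 and 92.6 CPM in fresh GV oocytes. In fresh MII oocytes it ran from 592 through 769 to 1170.3 CPM. The lowest MII oocyte lay far above the highest GV oocyte. Vitrified oocytes held 138, 116, 60.7 and 105 CPM in GV and 686, 976 and 1217 CPM in MII, again with a wide gap. Its log2 fold change of 3.24 ± 0.28 (adjusted p = 6.3e-12) in fresh and 3.19 ± 0.28 (adjusted p = 6.75e-12) in vitrified oocytes was the largest rise of any gene in the family. Rab7 (chr6:87999106-88045270, GRCm38, minus strand) shares 16.2% of its 50-base stretches with other annotated transcripts, mostly of the pseudogene Rab7-ps1, and its level is uncertain to that extent. Rab12, which sends receptors from recycling endosomes to lysosomes, rose by 1.40 ± 0.23 (adjusted p = 5.23e-06) in fresh and 1.58 ± 0.24 (adjusted p = 7.14e-07) in vitrified oocytes. Its fresh values were 16.9, 14.8, 14.3 and 20.2 CPM in GV and 31.0, 44.0 and 63.0 CPM in MII oocytes.

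Rab32 and Rab38, close relatives that serve melanosomes and other lysosome-related organelles, moved apart. Rab38 was at 184, 248, 305 and 181 CPM in fresh GV oocytes and at 29.8, 58.5 and 86.7 CPM in fresh MII oocytes. All MII values lay below all GV values, with log2 fold changes of −2.01 ± 0.24 (adjusted p = 1.51e-08) in fresh and −1.96 ± 0.24 (adjusted p = 2.06e-08) in vitrified oocytes. Rab32 rose in fresh oocytes, with means of 24.1 ± 9.00 CPM in GV and 54.3 ± 19.6 CPM in MII (SD, n = 4 and 12), a log2 fold change of 1.15 ± 0.33 (adjusted p = 0.00323). In vitrified oocytes it was 0.63 ± 0.31 (adjusted p = 0.0884), and the interaction of stage with vitrification was −0.53 ± 0.43 (p = 0.228 before adjustment). Rab9, which returns receptors from late endosomes to the Golgi, had a log2 fold change of −0.41 with a 95% interval from −1.01 to 0.18 in fresh oocytes. Rab29, of the trans-Golgi and lysosome, was tested only in the fit with GV oocytes. It fell by 4.39 ± 1.12 (adjusted p = 0.00127) in fresh oocytes from a mean of 2.61 CPM. In vitrified oocytes its log2 fold change was −1.31 ± 1.13 (adjusted p = 0.334). Rab24, linked to autophagy, did not pass in either treatment, and 62.4% of its exon bases lie opposite Prelid1.

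Of the early endosome Rabs, 4 of 7 tested were lower and 1 was higher in both treatments, where 29.8% and 33.7% of all genes were lower. Rab17, 1 of the 4, was tested only in the fit with GV oocytes. Rab21, which carries integrins inward, was at 107, 129, 78.1 and 64.3 CPM in fresh GV oocytes and at 14.7, 20.9 and 36.7 CPM in fresh MII oocytes. The log2 fold change was −2.12 ± 0.21 (adjusted p = 2.48e-10), and −2.51 ± 0.21 (adjusted p = 3.86e-12) in vitrified oocytes. Rab22a, a sorting Rab of the early endosome, went from 67.6, 59.5, 47.2 and 67.1 CPM to 10.7, 19.7 and 36.5 CPM in fresh oocytes. Its log2 fold change was −1.55 ± 0.27 in each treatment (adjusted p = 1.11e-05 in fresh and 1.02e-05 in vitrified oocytes).

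The paralogs of Rab5, the Rab of early endosome fusion, differed among themselves. Rab5c was at 12.2, 18.3, 7.36 and 18.9 CPM in fresh GV oocytes and at 1.63, 2.72 and 5.30 CPM in fresh MII oocytes. It fell by 2.22 ± 0.44 (adjusted p = 6.58e-05) in fresh and by 3.19 ± 0.44 (adjusted p = 1.46e-07) in vitrified oocytes on the log2 scale. Rab5a was at 4.52, 2.52, 11.0 and 2.43 CPM in fresh GV oocytes and at 7.51, 11.7 and 32.8 CPM in fresh MII oocytes. These ranges overlapped. Rab5a passed as higher with log2 fold changes of 1.41 ± 0.50 (adjusted p = 0.0178) in fresh and 1.303 ± 0.50 (adjusted p = 0.0247) in vitrified oocytes. The fresh call ended without GV fresh replicate 1, 2 or 4 (adjusted p = 0.0514 to 0.0780), the vitrified call without GV vitrified replicate 2, 3 or 4 (adjusted p = 0.0694 to 0.112), and both with library totals alone as the scale. Rab5b, at 2.38 ± 0.92 CPM (SD, n = 4) in fresh GV oocytes, had a log2 fold change of −0.14 with a 95% interval from −1.44 to 1.16. Rab17, an epithelial Rab, fell by 3.79 ± 0.90 (adjusted p = 0.000583) from 11.9 ± 11.4 CPM (SD, n = 4).

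Rabs of recycling and delivery to the surface went both ways, with 3 of 10 higher and 4 lower in each treatment. Over all genes 22.8% were higher and 29.8% lower in fresh oocytes, and 23.3% and 33.7% in vitrified ones. Only 7 of the 10 had enough counts among MII oocytes alone, and the falls of Rab13 and Rab4b were not among them. Rab11a, the Rab of recycling endosomes, was at 436, 364, 810 and 379 CPM in fresh GV and at 568, 447, 382 and 439 CPM in vitrified GV oocytes. In MII oocytes the lowest, median and highest values were 329, 416 and 646 CPM after fresh culture and 326, 417 and 604 CPM after vitrification. On the TMM scale all 4 groups overlapped. The log2 fold changes of stage were −0.24 (95% interval −0.61 to 0.14) in fresh and −0.09 (−0.47 to 0.29) in vitrified oocytes. Both intervals lie within a 2-fold change, but they depend on that scale. Library totals alone moved the median of all genes from −0.23 to −0.61 in fresh and from −0.34 to −0.81 in vitrified oocytes. Rab14, of traffic between endosomes and the Golgi and the gene with the highest mean CPM in both GV groups, rose by 0.58 ± 0.17 (adjusted p = 0.00496) in fresh and 0.95 ± 0.18 (adjusted p = 2.11e-05) in vitrified oocytes. With library totals alone as the scale the fresh change was 0.17 (adjusted p = 0.433).

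Within the Rab8, Rab10 and Rab13 branch, which delivers vesicles to the plasma membrane, Rab8b and Rab10 rose while Rab8a and Rab13 fell. Rab8b was at 38.2, 39.2, 36.1 and 16.96 CPM in fresh GV and at 32.3, 72.6 and 85.7 CPM in fresh MII oocytes, a log2 fold change of 1.08 ± 0.26 (adjusted p = 0.000612). For Rab8a it was −1.50 ± 0.35 (adjusted p = 0.000417) in fresh and −1.90 ± 0.34 (adjusted p = 1.48e-05) in vitrified oocytes. Rab13 stood at 15.5 ± 7.37 CPM in fresh GV and 1.03 ± 2.04 CPM in fresh MII oocytes (SD, n = 4 and 12), a fall with adjusted p = 0.00134. It was tested only in the fit with GV oocytes, as was Rab4b. Rab4b, a Rab of rapid recycling, fell from 20.002 ± 8.18 to 1.52 ± 3.92 CPM (adjusted p = 0.00455), and 65.0% of its exon bases also belong to the overlapping transcript Gm21983, so the genes cannot be separated. Its paralog Rab4a had log2 fold changes of −0.60 ± 0.27 (adjusted p = 0.0590) in fresh and −0.87 ± 0.26 (adjusted p = 0.00527) in vitrified oocytes. Rab35, of endocytic recycling, fell by 1.05 ± 0.28 (adjusted p = 0.00187) in fresh oocytes and had a log2 fold change of −0.52 ± 0.29 (adjusted p = 0.127) in vitrified oocytes.

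Of the Rabs of the endoplasmic reticulum (ER) and Golgi, 4 of 12 tested rose in both treatments, where 22.8% and 23.3% of all genes were higher. Rab18, of the ER and lipid droplets, was at 30.3, 25.2, 50.8 and 22.03 CPM in fresh GV oocytes and at 94.4, 133 and 162 CPM in fresh MII oocytes. Every MII oocyte exceeded every GV oocyte, and the log2 fold change was 1.99 ± 0.24 (adjusted p = 1.01e-08) in fresh and 2.71 ± 0.25 (adjusted p = 2.61e-11) in vitrified oocytes. Rab6a, of retrograde traffic at the Golgi, rose by 1.22 ± 0.31 (adjusted p = 0.00101) and 1.25 ± 0.31 (adjusted p = 0.00071) in fresh and vitrified oocytes. It shares 22.3% of its 50-base stretches with other annotated transcripts, Mrpl48 first among them. Of its exon bases 19.0% lie opposite Mrpl48, and its level is uncertain to that extent. Rab2b rose by 1.78 ± 0.55 (adjusted p = 0.00706) in fresh oocytes, although 59.3% of its exon bases lie opposite another transcript and the strand setting of the counting is not given. Its paralog Rab2a, also of early secretory traffic, rose by 0.66 ± 0.23 (adjusted p = 0.017) and 0.74 ± 0.23 (adjusted p = 0.00661). The fresh call ended without GV fresh replicate 2 (0.54, adjusted p = 0.0841), and among MII oocytes numbered under 20 it was also lost (0.44, adjusted p = 0.146).

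Rab1b and Rab39b fell in both treatments. For Rab39b the log2 fold changes were −2.08 ± 0.58 (adjusted p = 0.00283) in fresh and −2.53 ± 0.58 (adjusted p = 0.00034) in vitrified oocytes. Rab1b, which with Rab1a moves vesicles from the ER to the Golgi, was at 12.1, 19.9, 14.8 and 31.3 CPM in fresh GV and at 2.45, 5.44 and 14.2 CPM in fresh MII oocytes. The ranges met only through fresh MII replicate 11 at 14.2 CPM, since no other MII oocyte exceeded 9.33 CPM. The log2 fold change of Rab1b was −1.62 ± 0.51 (adjusted p = 0.00727), and −1.79 without that oocyte. That call ended without GV fresh replicate 4 (adjusted p = 0.0615). In vitrified oocytes Rab1b fell by 1.299 ± 0.51 (adjusted p = 0.0302), a call that ended without GV vitrified replicate 2, 3 or 4 (adjusted p = 0.0616 to 0.120). With only genes whose values were whole, Rab1b passed in neither treatment (−0.83 and −0.44). Rab1a was at 23.1, 28.5, 47.8 and 4.65 CPM in fresh GV and at 2.40, 10.4 and 62.9 CPM in fresh MII oocytes, with a log2 fold change of −0.82 ± 0.56 (adjusted p = 0.223). The value of 62.9 CPM belonged to replicate 11, and without that oocyte Rab1a passed at −1.32 ± 0.48 (adjusted p = 0.0181). Rab33b, a Golgi Rab that also binds an autophagy protein, fell by 1.503 ± 0.60 in fresh oocytes (adjusted p = 0.0337). That call ended without GV fresh replicate 2 (−0.98, adjusted p = 0.243) or MII fresh replicate 7 (−1.43, adjusted p = 0.0557). The low-level Rab30, Rab33a, Rab34 and Rab36, all under 3 CPM on average in both GV groups, did not pass in either treatment with all oocytes.

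Of the other Rabs, Rab44, a large Rab of immune cells, fell from 1.39 ± 0.72 to 0.065 ± 0.154 CPM in fresh oocytes, with an adjusted p of 0.00229. It was tested only in the fit with GV oocytes, and so was Rab40c. Rab40c, which joins a ubiquitin ligase complex, had log2 fold changes of −2.03 ± 1.15 (adjusted p = 0.14) in fresh and −2.93 ± 1.15 (adjusted p = 0.0288) in vitrified oocytes. The vitrified call ended without GV vitrified replicate 2 or 3 (adjusted p = 0.0810 and 0.0836). Rab23, a Rab of hedgehog signalling and the primary cilium, was at 24.02 ± 7.35 CPM in fresh GV and 19.6 ± 5.88 CPM in fresh MII oocytes and did not pass in either treatment. Rab28 did not pass either, at 1.33 ± 1.15 and 3.22 ± 3.56 CPM.

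Fresh MII replicate 11, which was high in cumulus markers, was also the highest of all 24 MII oocytes for 12 of the 46 tested genes. Over all genes tested it was the highest for 17.7%. Rab11b stood at 50.1 CPM there against a median of 0.717 CPM in the other MII oocytes, Rab31 at 52.1 against 5.73 CPM, and Rab34 at 34.8 against 0.779 CPM. It was the lowest MII oocyte for Rab38, Rab6a and Rab3a. Without it, the fresh stage log2 fold change of Rab11b went from 1.79 to −0.01, that of Rab34 from 2.19 to 0.37 and that of Rab31 from 1.03 to 0.22, none of which passed the test either way. The calls on Rab13 and Rab4b, which were tested only in the fit with GV oocytes, stayed at −4.97 and −5.56. Without the 4 MII oocytes known from earlier results as high in cumulus transcripts (fresh replicates 1 and 11, vitrified replicates 1 and 12), Rab11b and Rab34 turned to −1.23 and −1.59 and still did not pass. By the 20 markers used here, replicate 1 of each treatment was at only 154 and 145 CPM, fresh and vitrified. In that fit Rab33a passed as lower (−6.32 in place of −0.34, adjusted p = 6.41e-05), and so did Rab40c in fresh oocytes (−2.62, adjusted p = 0.0356). Rab33a and Rab40c, like Rab11b and Rab34, were tested only in the fit with GV oocytes. Rab3a no longer passed (−1.05, adjusted p = 0.0531). The part of cumulus RNA in these levels was not tested.

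Direction went with whether the MII values of a gene were whole. Of the 46 genes tested, 25 had whole values in all 24 MII oocytes, and 4 of these were higher and 11 lower in fresh MII oocytes. Only 17 of the 25 had enough counts among MII oocytes alone. The 11 falls include Rab13, Rab17, Rab29 and Rab44, which were tested only in the fit with GV oocytes. Of the 14 with fractional values in 1 to 11 MII oocytes, 5 were higher and 6 lower. Of the 7 with fractional values in 12 or more, 5 were higher and 0 lower, and these 7 include Rab7, Rab14, Rab6a, Sytl4 and Rab3d. The same order was seen over all genes: the median fresh log2 fold change was −0.84 among 6599 genes with whole values, 0.12 among 3018 and 1.07 among 1853. Most fractions in the family were small. Values lay more than 0.1 from a whole number in at least 12 MII oocytes for 4 genes (Rab7, Rab14, Rab6a and Rab24), and in at most 1 MII oocyte for Sytl4, Sytl2, Rab3d, Rab18 and Rab12. Wholeness, MII level and direction cannot be told apart here, and the part of whole or fractional values in the stage changes was not tested. When only genes with whole values entered the fit, Rab8b, Rab10, Rab2a and Rab5a passed as higher in both treatments. In that fit the fresh changes were shifted upward, to 1.88 for Rab8b, −1.20 for Rab38 and −1.31 for Rab21. Falls no longer passed there for Rab1b (−0.83, adjusted p = 0.197), Rab39b (−1.28, adjusted p = 0.0910) and Rab8a (−0.73, adjusted p = 0.0911) in fresh oocytes. The same held for Rab1b (−0.44, adjusted p = 0.515), Rab4a (−0.02, adjusted p = 0.952) and Rab40c (−2.11, adjusted p = 0.135) in vitrified oocytes. Rab29 and Rab44 were not tested in that fit. Among genes not called in fresh oocytes, Rab4a, Rab5b and Rab9 turned to 0.21, 0.63 and 0.38.

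The transcript ends of the rising genes were examined because poly(A) tails change during meiotic maturation. As background, a cytoplasmic polyadenylation element near the end of a transcript allows its tail to lengthen as the oocyte matures, and this library kit primes on the tail, so that a level can reflect both amount and tail. The element was searched as TTTTAT or TTTTAAT, on the transcript strand, in the last 100 bases of the longest coding transcript of each gene (GENCODE M21), where its 3′ untranslated region was at least that long. It was found in 5 of the 14 genes higher in fresh MII oocytes, namely Rab18, Rab2b, Rab5a, Rab6a and Rab8b, and in 0 of the 17 lower genes. Over all genes the shares were 30.4% of those higher, 11.6% of those lower and 20.3% of all tested. Among the genes not called, Rab11a and Rab9 had it. The 5 largest rises that separated completely (Rab7, Sytl2, Rab3d, Sytl4 and Rab18) included 1 gene with the element. The sites below show 4 of the risen genes and, for contrast, Rab11a, which did not change beyond its error on the TMM scale. Each is 30 bases of 3′ untranslated sequence on GRCm38, 5′ to 3′ on the transcript strand, with the element in capitals.
Rab2b: aaattttctaatTTTTATtgttaatgaccg
Rab5a: accggtgtttagTTTTATattgaggtgctc
Rab6a: ttgactcttttgTTTTATtttgacatggca
Rab8b: tttaaaaatgaaTTTTATtccaggtgaact
Rab11a: tttggacttttTTTTAATctattgatttgg
They lie at chr14:52261798-52261827 (minus strand) for Rab2b, chr17:53507622-53507651 (plus) for Rab5a, chr7:100641207-100641236 (plus) for Rab6a, chr9:66843718-66843747 (minus) for Rab8b and chr9:64715341-64715370 (minus) for Rab11a. In these sites the element begins 57, 47, 50, 72 and 61 bases from the annotated end. A match describes these letters only, and tail length was not measured, so its part in the levels was not tested.

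**Figure D4:**
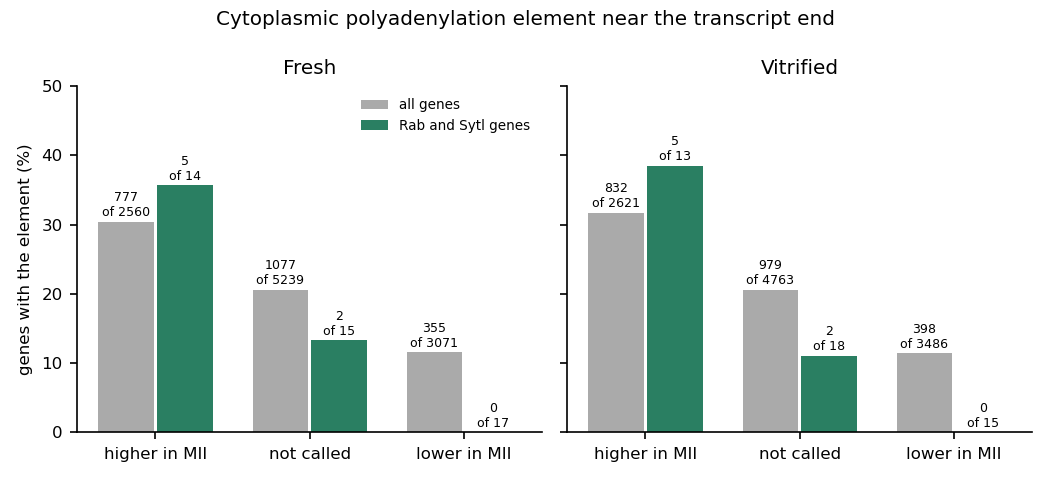
Percentage of genes with the polyadenylation element in the last 100 bases, among genes higher in MII, not called and lower in MII, for all genes (grey) and for the Rab and Sytl genes (green), in fresh (left) and vitrified (right) oocytes. In fresh oocytes 35.7% of the higher Rab and Sytl genes had it against 30.4% of all higher genes.

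Among genes of the machinery around the Rabs some rose and some fell, as did 22.8% and 29.8% of all genes in fresh and 23.3% and 33.7% in vitrified oocytes. Of 8 genes for prenylation and membrane extraction, 1 was higher and 3 were lower in fresh MII oocytes. Rabif, a chaperone of Rabs, rose by 1.19 ± 0.26 (adjusted p = 0.000192). Rabac1 fell by 1.504 ± 0.31 (adjusted p = 0.000125) and Gdi2, a dissociation inhibitor that extracts Rabs from membranes, fell by 0.53 ± 0.22 (adjusted p = 0.0414). Among 40 GEFs tested 10 were higher and 7 lower. Ccz1, a subunit of the exchange factor of Rab7, rose from 41.1 ± 3.18 to 151 ± 28.3 CPM, and Rab3gap2, which as a complex acts on Rab18, rose from 63.8 ± 16.9 to 226 ± 71.3 CPM. Rin3, an exchange factor of the Rab5 group, fell from 66.3 ± 36.9 to 1.55 ± 1.07 CPM (SD, n = 4 GV and 12 MII oocytes). Of 31 GAPs 10 were higher and 5 lower. Tbc1d15, a GAP known to act on Rab7, rose from 432 ± 216 to 4919 ± 717 CPM, a log2 fold change of 3.49 ± 0.27 (adjusted p = 4.73e-13).

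Of 35 other Rab effectors 6 were higher and 7 lower, with Rims1, a Rab3 effector of active zones, at 3.29 ± 0.39 (adjusted p = 1.01e-08) and Optn, a Rab8 effector, at −3.96 ± 0.36 (adjusted p = 2.86e-11). Myo5b, the motor that binds Rab11, rose by 1.25 ± 0.32 (adjusted p = 0.00147). Of the 8 exocyst subunits, which tether vesicles at the plasma membrane, 4 were higher and 2 lower. Exoc1 and Exoc4 rose by 2.15 ± 0.21 and 1.86 ± 0.30, while Exoc3 fell by 2.19 ± 0.41 (adjusted p = 1.44e-10, 3.09e-06 and 2.67e-05). Of 26 genes for cortical granule fusion and contents 5 were higher and 8 lower. Spire1, an actin nucleator, rose by 2.29 ± 0.28 (adjusted p = 1.48e-08). Its paralog Spire2 fell by 4.27 ± 0.82 (adjusted p = 4.01e-05), from a mean of 4.27 CPM in GV to 0.214 CPM in MII oocytes. Vamp8, a vesicle SNARE, fell from 326 ± 57.8 to 3.71 ± 5.16 CPM (adjusted p = 1.29e-12). The medians of these 6 lists ran from −0.39 (effectors) to 0.94 (exocyst), against −0.23 over all genes. Among MII oocytes alone, 30 of the 40 GEFs, 25 of the 31 GAPs and 28 of the 35 effectors had enough counts. So did 7 of the 8 exocyst and 19 of the 26 cortical granule genes, and all 8 for prenylation. Falls among the rest carry the same limit as those of family genes tested only in the fit with GV oocytes. In vitrified oocytes 1 was higher and 3 lower for prenylation, 10 and 14 for GEFs, 8 and 8 for GAPs, 6 and 10 for effectors, 4 and 2 for the exocyst and 6 and 9 for cortical granules, and none of the 6 lists held a gene called for vitrification at either stage.

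To ask whether vitrification left a mark on these transcripts, the treatments were compared at GV and at MII separately. No gene of the family passed the test in either. Among GV oocytes 0 of 46 were called (0.0% of all 10831 genes), and 1 had an unadjusted p under 0.05, against 1.66% of all genes. That gene was Rab3b, and its vitrified values of 138 to 173 CPM lay just below the fresh ones of 175 to 488 CPM, as was the case for 1.3% of all genes. The log2 fold change was −0.80 ± 0.35 (p = 0.041 before adjustment, edgeR), and −0.34 without fresh replicate 3, the highest oocyte. With 4 oocytes per group the 95% interval lay within a 2-fold change for 11 of the 46 genes, against 18.9% of all genes, so most could hold changes of that size unseen. DESeq2 and limma called 0 genes in GV oocytes, with 251 and 225 at an unadjusted p under 0.05.

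Among MII oocytes 0 of 36 were called (0.0% of all 8428 genes), and 8 had an unadjusted p under 0.05, against 12.5% of all genes. Of these 8, 7 were higher after vitrification: Sytl4, Rab8b, Rab18, Rab35, Rab7, Rab14 and Rab12. Rab3b was lower. The split of directions among all genes with a low p was not taken, so this split has no background. Sytl4 had the smallest p. Fresh oocytes ran from 300 through 478 to 566 CPM and vitrified ones from 489 through 633 to 854 CPM, so the ranges overlapped while the vitrified median lay above the highest fresh value. The log2 fold change was 0.52 ± 0.12 (95% interval 0.28 to 0.76, p = 0.000107 before and 0.19 after adjustment). Of all genes limma called 0, and DESeq2 called 52 (0.617%), with Sytl4 among them (0.52, adjusted p = 0.00973). Adjusted p ran from 0.104 to 0.876 under edgeR and limma alternatives. Library totals alone as the scale moved the median over all genes from −0.05 to −0.17 and the change of Sytl4 to 0.37. Within library numbers under 20 its log2 fold change was 0.65 (adjusted p = 0.112), and 0.31 (adjusted p = 0.876) within numbers of 20 and over. In GV oocytes it was 0.55 ± 0.32, with a 95% interval from −0.15 to 1.24.

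Rab8b was at 0.44 ± 0.16 (adjusted p = 0.264) and Rab18 at 0.31 ± 0.13 (adjusted p = 0.333) in vitrified against fresh MII oocytes. Rab7 was at 0.28 ± 0.12 and Rab3b at −0.82 ± 0.34 (adjusted p = 0.363 and 0.334). Rab27a was at 0.10 with a 95% interval from −0.40 to 0.59, Rab11a at 0.04 (−0.20 to 0.27) and Rab38 at 0.02 (−0.37 to 0.41). For 25 of the 36 genes the interval lay within a 2-fold change, against 63.8% of all genes. The low p-values and the narrow intervals of the family were thus read beside the same shares over all genes.

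**Figure D5:**
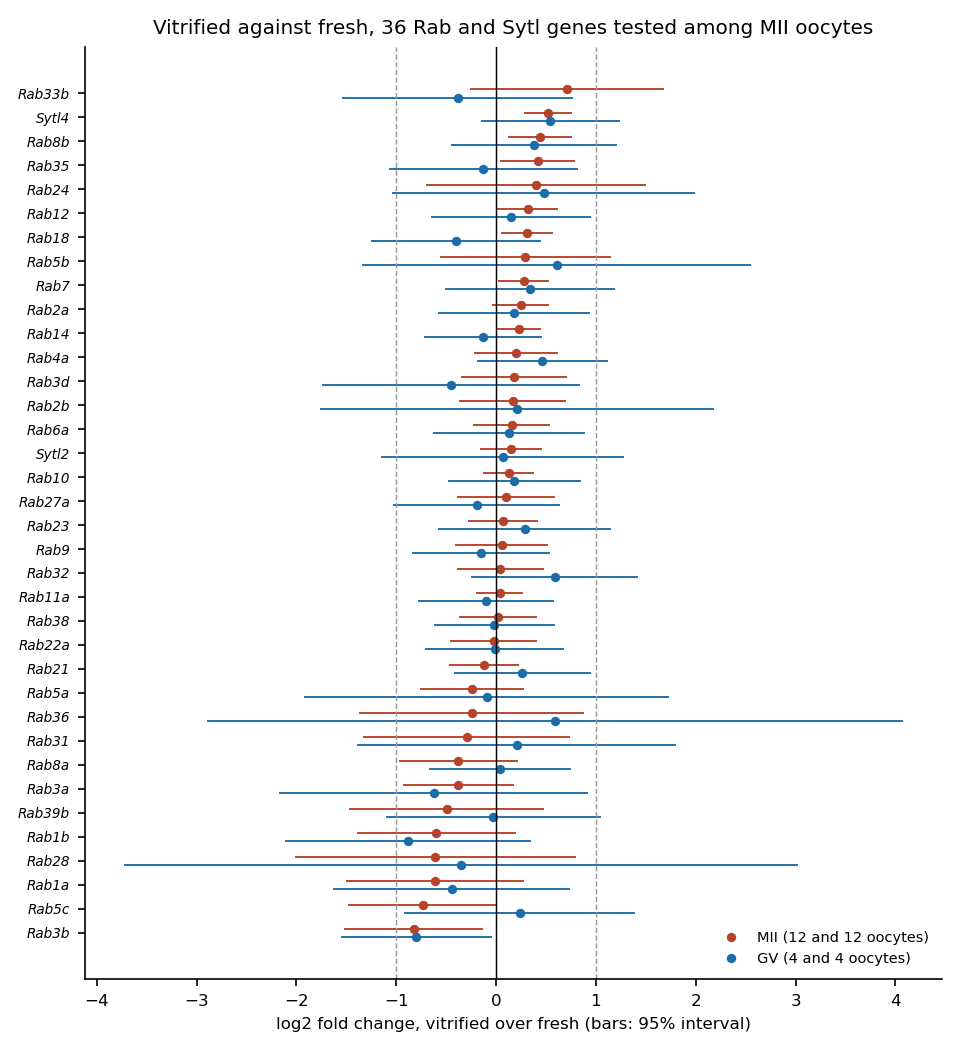
Log2 fold change of vitrified over fresh oocytes with 95% intervals, in MII (red) and GV (blue) oocytes, for the 36 genes tested among MII oocytes and ordered by their MII value. Dashed lines mark a 2-fold change. Sytl4 was at 0.52 in MII and 0.55 in GV oocytes, and the GV intervals were wider.

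The change from GV to MII was also compared between treatments. Neither the family (0 of 46) nor the table (0.0% of 11470 genes) held a gene whose stage change differed after vitrification by edgeR, while DESeq2 called 7 genes of the table higher and 1 lower, and limma 0. At an unadjusted p under 0.05 the interaction held 1 gene of the family, against 4.07% of all genes. This was Rab18, whose stage change was larger by 0.72 ± 0.30 on the log2 scale in vitrified oocytes (p = 0.0205 before adjustment, edgeR). For Rab29, called lower only in fresh oocytes, the difference was 3.08 ± 1.75 (p = 0.0875 before adjustment), and for Rab33b, Rab35, Rab3a and Rab4a unadjusted p ran from 0.206 to 0.723. The treatments were therefore not shown to differ in which of these genes changed with stage.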

How the data were processed

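Single oocytes were sequenced with a SMART-Seq v4 kit, per the labels' protocols, and the submitters' processing notes list HISAT2, featureCounts and the mm10 build, with no version. The deposited values of GV oocytes are whole counts. Those of MII oocytes resemble expected counts, since 11.7% to 19.7% of the deposited values per oocyte are not whole, and no source used here names the authors' step behind this. After removal of 27 exact repeats from 13202 entries, 13175 genes were left, with MII totals of 10 or more throughout. All values were rounded to whole numbers, as the test was planned for counts. Genes were filtered with filterByExpr (10 counts, 15 in total), libraries scaled with TMM, and groups compared with the two-sided quasi-likelihood F test of edgeR 4.0.16 in R 4.3.3, with Benjamini-Hochberg adjustment at 0.05 over all genes tested. GV (8) and MII (24) oocytes were fitted apart for vitrification, and all 32 together, with 4 group means, for stage. Errors of CPM are SDs over oocytes and those of fold changes SEs. Ranges of CPM use these scaled sizes. Limits for 0 counts use plain totals and cover counting error only. Positions and exons are from GENCODE M21 (GRCm38), where all 55 genes had a record. DESeq2 1.42.0, limma 3.58.1 (voom), other scalings, no filter on low counts, rounding down, a replicate block, library number ranges and leaving out oocytes were the alternatives, and a fit to genes with whole values was added after seeing the data. The edgeR steps were tested on simulated data. Shown oocyte by oocyte were the 5 genes with the smallest p in each direction among those called in both stage comparisons, the 3 with the smallest p for vitrification, and Rab1a, Rab5a, Rab7, Rab11a, Rab27a, Rab27b, Rab3a, Rab3d, Sytl2 and Sytl4. Partner genes named are among the 3 with the smallest p in each direction of each list. Members, lists and tests were chosen with earlier results of these data known. Markers of theca, stroma and endothelium (4 of 6 in the table) had median sums of 13.8, 20.8, 67.5 and 71.3 CPM in fresh GV, vitrified GV, fresh MII and vitrified MII oocytes, and 1 of 5 blood cell markers was in the table, with medians of 2.44, 1.09, 4.84 and 5.60 CPM. The 12 oocyte markers had median sums of 17097, 13365, 14331 and 16164 CPM.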

Additional observations from a re-analysis of the deposited data

Results flagged for a closer look

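Single GV oocytes lay far from the other 3 of their group in 5 of 36 groups of values examined, where chance flags about 1 in 20 groups by the same measure. Fresh GV replicate 3 was highest for 2 of these genes: Rab3b was at 487.8 CPM there against 175, 176 and 222 CPM, and Rab11a at 810.1 CPM against 364, 379 and 436 CPM. That oocyte had the lowest total of the GV oocytes, 10357543 counts. Its TMM factor was 1.05, against 1.31 to 1.40 in the other fresh GV oocytes, which raises its levels against theirs. The part of scaling in these flags was not tested. Rab8b was lowest in fresh GV replicate 4, at 16.96 CPM against 36.1, 38.2 and 39.2 CPM. Vitrified GV replicate 3 was lowest for Sytl2, at 7.78 CPM against 17.3, 17.9 and 18.9 CPM, and highest for Rab12, at 21.4 CPM against 16.98, 17.4 and 17.6 CPM. Without these oocytes the stage changes stayed past the test: −5.003 for Rab3b and 0.87 for Rab8b in fresh oocytes, and 2.45 for Sytl2 and 1.65 for Rab12 in vitrified oocytes.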

How the results depend on the processing

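No called change of a Rab or Sytl gene was reversed under the alternatives run. DESeq2 called 1 gene of the family (Sytl4) higher in vitrified MII oocytes, where edgeR called 0. With only genes whose values were whole in all MII oocytes, an alternative chosen after seeing the data that tests fewer genes and shifts the changes upward, 4 genes were higher and 6 lower in fresh MII oocytes, and 4 and 8 in vitrified ones. Rab29 and Rab44, which fell in fresh oocytes in the main fit, were not tested there. Leaving out 1 oocyte at a time gave 12 to 14 higher and 15 to 18 lower genes in fresh MII oocytes, and 12 to 14 and 13 to 17 in vitrified ones, and 0 for vitrification and the interaction. Library totals alone moved the median of all genes from −0.23 to −0.61 in fresh and from −0.34 to −0.81 in vitrified oocytes, and ended the calls on Rab10 and Rab2a in both, on Rab5a in both and on Rab14 in fresh oocytes. Apart from the fit to genes with whole values, 9 of 14 rises and 11 of 17 falls in fresh oocytes, and 10 of 13 and 11 of 15 in vitrified ones, passed in every alternative that gave a value. Within 1 range of library numbers the calls on Rab2b, Rab35 and Rab4b in fresh and on Rab44, Rab4a and Rab40c in vitrified oocytes were lost (adjusted p = 0.0545, 0.0654, 0.0827, 0.0772, 0.0684 and 0.191), where fewer oocytes entered. So were those on Rab2a, Rab33b and Rab5a in fresh oocytes (0.146, 0.243 and 0.0968), on Rab5a and Rab1b in vitrified oocytes (0.144 and 0.121), and on Rab3a in fresh oocytes in both ranges (0.0677 and 0.262). Replicate numbers did not pair the oocytes (correlations of deviations from −0.39 to 0.19 in GV and from −0.33 to 0.29 in MII oocytes). With the replicate block 13 genes were higher and 14 lower in fresh MII oocytes, 12 and 13 in vitrified ones, and 0 were called for vitrification at either stage. Rab39b in fresh and Rab1b, Rab5a and Rab40c in vitrified oocytes, and Rab1b, Rab3a and Rab5a in fresh oocytes, lost their calls with it. Depth limits the 9 untested genes, and 4 oocytes per group limit every comparison with GV oocytes.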
